A study of Mus musculus with 12 samples.

Results

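The 10 genes described here encode zinc-dependent histone deacetylases, the enzyme family that the compounds given to these mice were made to inhibit. They are Hdac1, Hdac2, Hdac3 and Hdac8 of class I, Hdac4, Hdac5 and Hdac9 of class IIa, Hdac6 and Hdac10 of class IIb, and Hdac11 of class IV. The genes were set by family membership, out of 22180 genes with a probe set of their own on the array. No rule on their values was used, but earlier results of these data were known at the choice. The family gene Hdac7 is outside the 10 and is given apart below. Each gene is represented by a probe set annotated to that symbol alone, and Hdac11, the only one with 2 such probe sets, by the brighter. All 10 passed the filter on low signal in every comparison.

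RNA of the hippocampus was hybridised to 12 Affymetrix Mouse Gene 2.0 ST arrays, 3 in each of 4 groups. The treated groups received CM-695, a compound that inhibits HDAC6 more strongly than class I enzymes and also inhibits the phosphodiesterase PDE9, or CM-414, which inhibits HDAC6, class I enzymes to a moderate degree and PDE5, or SAHA (vorinostat, an inhibitor of most zinc-dependent deacetylases) together with tadalafil (a PDE5 inhibitor). The control group received vehicle, which the labels call saline and the methods describe as saline with DMSO and Tween-20. All mice, controls included, carried the transgene of the Tg2576 line, human APP with the Swedish mutation under a hamster prion promoter. The labels name the strain as B6.Cg-Tg(APPswe)E1-2Dbo/J, whereas the study's methods name Tg2576 females on a C57BL/6/SJL background, and no wild-type arrays were analysed here. The mice were 16 to 18 months old, were treated for 4 weeks, were trained in fear conditioning and a water maze meanwhile, and were killed 24 h after treatment ended. Doses for CM-414 and for SAHA and tadalafil are not given in the sources used here, so differences between compounds are differences between these treatment groups.

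Histone deacetylases remove acetyl groups from lysines. Class I enzymes act mainly in the nucleus, where HDAC1 and HDAC2 sit in the Sin3, NuRD and CoREST complexes and HDAC3 in the NCoR complex, and in mouse hippocampus HDAC2 is known as a brake on synaptic genes and memory. Class IIa enzymes bind MEF2 transcription factors and leave the nucleus when calcium-dependent kinases phosphorylate them. HDAC6 works in the cytoplasm on tubulin, HSP90 and cortactin and carries ubiquitinated protein aggregates along microtubules. HDAC10 is a polyamine deacetylase, and HDAC11 removes longer fatty acyl groups. Arrays measure the transcripts of these enzymes and not their activity.

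The promoters of Hdac5 and Hdac9 are shown because these class IIa genes were the members whose CM-414 arrays all lay below the vehicle arrays. Both are the 250 bases before the annotated start, 5′ to 3′ on the minus strand, from RefSeq on build GRCm38.p6, with Hdac5 at chr11:102230173-102230422 and Hdac9 at chr12:34917096-34917345.
Hdac5: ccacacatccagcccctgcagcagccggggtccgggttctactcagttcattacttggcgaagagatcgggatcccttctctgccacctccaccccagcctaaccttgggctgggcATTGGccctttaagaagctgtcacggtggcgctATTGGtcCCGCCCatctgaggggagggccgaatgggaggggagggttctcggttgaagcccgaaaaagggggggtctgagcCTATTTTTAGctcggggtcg
Hdac9: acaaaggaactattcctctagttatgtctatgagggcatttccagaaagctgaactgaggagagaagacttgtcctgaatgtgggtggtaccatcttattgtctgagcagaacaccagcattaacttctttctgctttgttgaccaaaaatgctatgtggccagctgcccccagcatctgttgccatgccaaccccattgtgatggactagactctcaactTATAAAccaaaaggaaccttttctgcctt
Capitals mark matches on either strand to the GC box (GGGCGG or CCGCCC), the CCAAT box (CCAAT or ATTGG), the TATA box (TATAAA or TTTATA) and the MEF2 element. No capitalised match overlaps another. The Hdac5 window is GC-rich (60.8%), with 12 CpG dinucleotides, 1 GC box, 2 CCAAT boxes and 1 MEF2 match. The Hdac9 window is at 44.4% GC, has 0 CpG dinucleotides and holds 1 TATA box and none of the other motifs. Among 32851 mouse windows of the same length, 32.7% held a GC box, 33.8% a CCAAT box, 12.4% a TATA box and 2.92% a MEF2 match, and the median GC content was 52.4%. Windows were found for 7 of the 10 genes. Hdac4, Hdac6 and Hdac11 also had GC boxes and CCAAT boxes, Hdac2 had 1 GC box, Hdac8 had 2 CCAAT boxes and 1 TATA box, and the second Hdac9 window had none of these motifs. The cAMP response element TGACGTCA, which 1.55% of all windows held, was in none of the 8 windows. These matches describe letters in a window and were not tested for factor binding.

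Pairs of arrays correlated at 0.978 to 0.991 over 41345 probe sets, and none were identical. On the first principal component, which held 23.6% of the variance, CM-695 replicate 3, SAHA and tadalafil replicate 1 and vehicle replicate 2 stood apart from the rest. Markers of hippocampal neurons had a mean log2 intensity over the 12 genes of 8.62 to 8.90. Markers of the neighbouring thalamus and habenula were measured as well. Their mean was 7.96 on vehicle replicate 1 and on SAHA and tadalafil replicate 2, and 7.18 to 7.58 on the other 10 arrays. In bulk tissue, fewer cells of a type and less RNA per cell cannot be told apart.

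The deacetylase transcripts differed little between treatments. Within groups the members had a median SD of 0.09 on the log2 scale, against 0.16 over the 34785 probe sets above 4 on all arrays. This spread does not measure differences between treatments. The members were also brighter (means of 7.35 to 9.58) than the array medians (6.34 to 6.41), and the SD was not compared at equal intensity. At the study's threshold of an unadjusted limma p under 0.01, Hdac5 was the only member called, and only with CM-414. This is 1 of 10 members, against 2.45% of all probe sets in that comparison. With CM-695 against vehicle 0 of 10 members were called, against 1.12% of all probe sets. That comparison was fitted on its 6 arrays and the others on all 12. Fitted on all 12 arrays, CM-695 against vehicle also had 0 members called. On only the 6 arrays of CM-414 and vehicle, Hdac5 was not called (unadjusted p = 0.023, limma). With SAHA and tadalafil against vehicle 0 were called, against 1.12%. The mean of the treatments against vehicle gave 0 (1.62% of all probe sets), CM-695 against CM-414 gave 0 (1.11%), and the F test of any difference among the 4 groups gave 0 (1.62%). After Benjamini-Hochberg adjustment over all probe sets, 0 members had an adjusted limma p under 0.05 in any of the 6 comparisons. In 5 of them this held for 0% of probe sets, and with SAHA and tadalafil against vehicle for 0.00284%, a single probe set. At an unadjusted p under 0.05 there were 2 members with CM-414, 2 for CM-695 against CM-414, 1 for the mean of the treatments and 1 in the F test, and 0 for CM-695 and for SAHA and tadalafil against vehicle. Over all probe sets that threshold was met by 9.35% with CM-414, 5.72% for CM-695 against CM-414, 7.17% for the mean of the treatments, 7.53% in the F test, 5.09% with CM-695 and 5.23% with SAHA and tadalafil.

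The median fold change of the 10 members against vehicle was -0.03 (log2) with each of the 3 treatments, where the median over all probe sets was 0.01 with CM-695, 0.00 with CM-414 and -0.01 with SAHA and tadalafil. Fold changes were negative for 6 members with CM-695, 8 with CM-414 and 7 with SAHA and tadalafil. Of all probe sets, 51.99% had a positive fold change with CM-695, 51.2% with CM-414 and 47.3% with SAHA and tadalafil. These 3 comparisons share the same vehicle arrays. No member differed from vehicle by more than 0.25 in either direction, and the largest difference was a fold of 0.843.

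**Figure D1:**
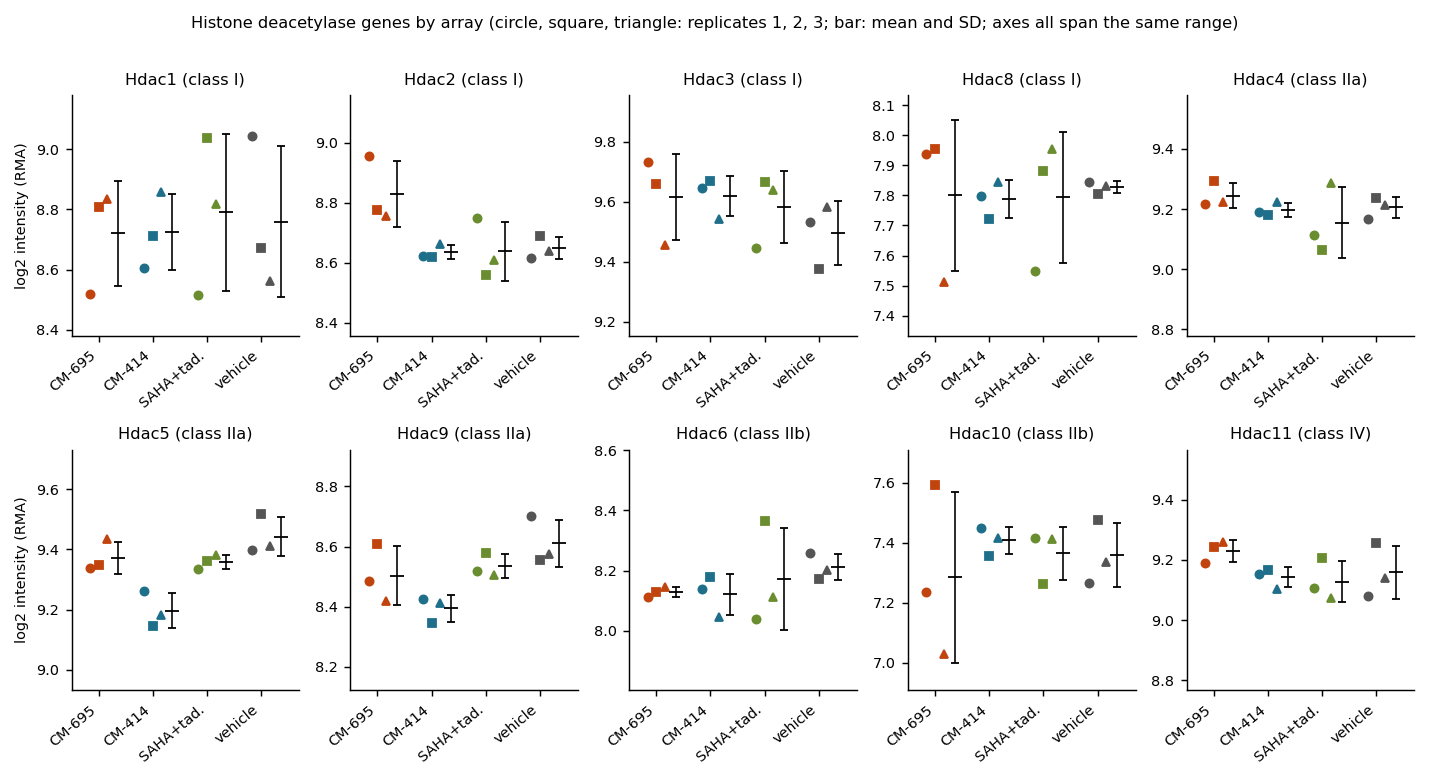
Log2 intensity of each deacetylase gene (vertical axis, each panel spanning the same range) on the 3 arrays of each treatment group and of vehicle (horizontal axis), with the mean and SD as a bar. The CM-414 arrays of Hdac5 (9.15 to 9.26) lie below the other 9 arrays and the CM-695 arrays of Hdac2 (8.76 to 8.96) above them, while the groups of Hdac1, Hdac3, Hdac4, Hdac8 and Hdac10 overlap.

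Hdac5, a class IIa repressor of MEF2 targets that shuttles out of the nucleus with neuronal activity, was lowest with CM-414. Its log2 intensity was 9.34, 9.35 and 9.43 with CM-695, 9.26, 9.15 and 9.18 with CM-414, 9.34, 9.36 and 9.38 with SAHA and tadalafil, and 9.40, 9.52 and 9.41 with vehicle. All 3 CM-414 arrays were below the other 9, of which the lowest was 9.34, a separation that 2.17% of all probe sets showed for CM-414 in either direction. CM-414 against vehicle gave a log2 fold change of -0.25 (SE 0.07, 95% interval -0.41 to -0.09, unadjusted p = 0.00599, adjusted p = 0.404 from limma). The SAHA and tadalafil arrays also lay below all vehicle arrays, with a fold change of -0.08 (-0.24 to 0.08), and CM-695 overlapped with vehicle at -0.07 (-0.29 to 0.15). In the order of means, CM-414 (9.20 ± 0.06), SAHA and tadalafil (9.36 ± 0.02), CM-695 (9.37 ± 0.05) and vehicle (9.44 ± 0.07, SD, n = 3 each), CM-414 did not overlap with its neighbour, while SAHA and tadalafil overlapped with CM-695, and CM-695 with vehicle. Hdac5 also had the smallest p among members in the F test (unadjusted p = 0.035, adjusted p = 0.646 from limma) and for the mean of the treatments (-0.13, unadjusted p = 0.0462, adjusted p = 0.692). The call with CM-414 was lost without vehicle replicate 2 (-0.21, unadjusted p = 0.0228), vehicle replicate 3 (unadjusted p = 0.0108), CM-414 replicate 2 (unadjusted p = 0.0254) or CM-414 replicate 3 (unadjusted p = 0.0201), each with limma, and the fold change stayed negative.

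Hdac9, the class IIa member whose short splice form in mouse lacks the deacetylase domain, was also lowest with CM-414. It was at 8.48, 8.61 and 8.42 with CM-695, 8.43, 8.34 and 8.41 with CM-414, 8.52, 8.58 and 8.50 with SAHA and tadalafil, and 8.70, 8.55 and 8.58 with vehicle. The CM-414 arrays lay below all vehicle arrays but overlapped with CM-695. CM-414 against vehicle gave -0.22 (SE 0.08, 95% interval -0.39 to -0.04, unadjusted p = 0.0195, adjusted p = 0.459 from limma), which did not pass the threshold of 0.01. Without vehicle replicate 1, the highest array, it was -0.17 (unadjusted p = 0.0798, limma). Against vehicle, CM-695 gave -0.11 (-0.34 to 0.13) and SAHA and tadalafil -0.08 (-0.25 to 0.10).

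Hdac4, the third class IIa gene, which in mouse brain is needed for normal learning, stayed within 0.23 over all 12 arrays, between 9.06 and 9.29. Group means were 9.24 ± 0.04 with CM-695, 9.20 ± 0.02 with CM-414, 9.15 ± 0.12 with SAHA and tadalafil, and 9.21 ± 0.04 with vehicle (SD, n = 3). All groups overlapped, and the fold changes against vehicle were 0.04, -0.01 and -0.05, with 95% intervals that lay within -0.22 and 0.25.

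Hdac2 was the class I member that stood apart, and with CM-695. Its log2 intensity was 8.96, 8.78 and 8.76 with CM-695, 8.62, 8.62 and 8.66 with CM-414, 8.75, 8.56 and 8.61 with SAHA and tadalafil, and 8.62, 8.69 and 8.64 with vehicle. The 3 CM-695 arrays were above the other 9, the highest of which was 8.75, narrowly in the case of 2 of them. Such a separation of CM-695 in either direction was seen in 1.18% of all probe sets, and for SAHA and tadalafil, where no member had it, in 1.03%. Against vehicle the fold change of Hdac2 was 0.18 (SE 0.10, 95% interval -0.05 to 0.41, unadjusted p = 0.107, adjusted p = 0.992 from limma), which did not pass the threshold. Without CM-695 replicate 1 it was 0.12 (unadjusted p = 0.313, limma). Fitted on all 12 arrays, as the other comparisons were, Hdac2 with CM-695 had an unadjusted limma p of 0.0501. Hdac2 gave -0.01 with both CM-414 and SAHA and tadalafil.

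Hdac1, the paralog of Hdac2 in the same complexes, had the highest SD within groups (0.21). It was at 8.52, 8.81 and 8.83 with CM-695, 8.61, 8.71 and 8.86 with CM-414, 8.52, 9.04 and 8.82 with SAHA and tadalafil, and 9.04, 8.67 and 8.56 with vehicle. All groups overlapped, with fold changes against vehicle of -0.04, -0.03 and 0.03 and intervals as wide as -0.41 to 0.33 with CM-695. The 2 arrays at 9.04 are those with the highest thalamus and habenula markers.

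Hdac3, the catalytic subunit of the NCoR complex, had positive but small differences from vehicle, at 0.12 with CM-695 (95% interval -0.15 to 0.39), 0.12 with CM-414 (-0.10 to 0.34) and 0.09 with SAHA and tadalafil (-0.13 to 0.31). The arrays were at 9.73, 9.66 and 9.46 with CM-695, 9.65, 9.67 and 9.54 with CM-414, 9.45, 9.67 and 9.64 with SAHA and tadalafil, and 9.53, 9.38 and 9.58 with vehicle. The lowest array of the CM-695, SAHA and tadalafil, and vehicle groups was in each case the one set apart by the first principal component. The same held for Hdac8, the X-linked class I enzyme that deacetylates cohesin, at 7.94, 7.95 and 7.51 with CM-695, 7.80, 7.72 and 7.85 with CM-414, 7.55, 7.88 and 7.96 with SAHA and tadalafil, and 7.85, 7.81 and 7.83 with vehicle. Over the 12 arrays, the correlation with the component's score was -0.76 for Hdac3 and -0.58 for Hdac8, given as a description. Hdac8 differed from vehicle by -0.03 with CM-695, -0.04 with CM-414 and -0.03 with SAHA and tadalafil.

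Hdac6, which encodes a target shared by all 3 treatments, had group means within 0.09 of each other. It was at 8.11, 8.13 and 8.15 with CM-695, 8.14, 8.18 and 8.05 with CM-414, 8.04, 8.37 and 8.11 with SAHA and tadalafil, and 8.26, 8.17 and 8.20 with vehicle. The CM-695 arrays lay just below the vehicle arrays, and the other groups overlapped with vehicle. Fold changes against vehicle were -0.08 with CM-695 (95% interval -0.29 to 0.12, unadjusted p = 0.375), -0.09 with CM-414 (-0.29 to 0.11, unadjusted p = 0.344) and -0.04 with SAHA and tadalafil (-0.24 to 0.16, unadjusted p = 0.676), all from limma. The mean of the treatments gave -0.07 (-0.23 to 0.09). Hdac10, the other class IIb gene, ranged most of all members, between 7.03 and 7.59, and both ends of that range were CM-695 arrays. Its group means were 7.29 ± 0.28 with CM-695, 7.41 ± 0.05 with CM-414, 7.36 ± 0.09 with SAHA and tadalafil, and 7.36 ± 0.11 with vehicle (SD, n = 3).

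Hdac11, the only class IV enzyme, ranged over 0.19 and so the least of the members. It was at 9.19, 9.24 and 9.26 with CM-695, 9.15, 9.17 and 9.10 with CM-414, 9.11, 9.21 and 9.07 with SAHA and tadalafil, and 9.08, 9.26 and 9.14 with vehicle. Its 2 probe sets disagreed between the compounds. The brighter was higher on all 3 CM-695 arrays than on the CM-414 arrays (0.09, unadjusted p = 0.268), and the dimmer was lower on all of them (means 6.51 and 6.75, -0.25, unadjusted p = 0.0256), both from limma. The dimmer one gave 0.22 with CM-414 against vehicle (unadjusted p = 0.0397).

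**Figure D2:**
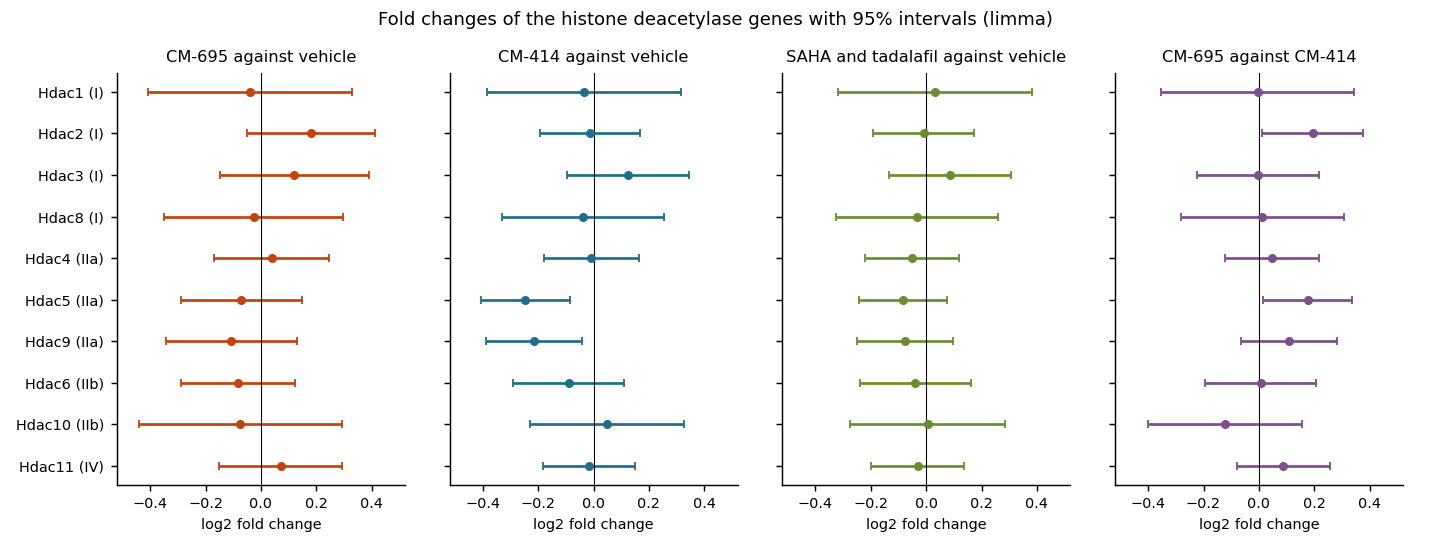
Log2 fold change (horizontal axis, points) with its 95% interval (bars) for each deacetylase gene, ordered by class down the page, for each treatment against vehicle and for CM-695 against CM-414. The intervals of Hdac5 and Hdac9 with CM-414 and those of Hdac2 and Hdac5 for CM-695 against CM-414 leave out 0, and all others include it.

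Between the compounds, CM-695 against CM-414, Hdac2 was higher by 0.19 (95% interval 0.01 to 0.38, unadjusted p = 0.0386) and Hdac5 by 0.18 (0.02 to 0.34, unadjusted p = 0.0338), both with an adjusted limma p of 0.856 and neither past the threshold of 0.01. The arrays of the 2 groups did not overlap for Hdac2, Hdac5 and Hdac11, all higher with CM-695. Of all probe sets, 6.45% were higher and 6.94% lower in this way. Hdac6 differed by 0.01 (-0.19 to 0.21). The p for Hdac2 was 0.159 without CM-695 replicate 1, and that for Hdac5 was 0.104 without CM-414 replicate 2.

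Counted over the treatments against vehicle, the members without overlap were Hdac2 (higher) and Hdac6 (lower) with CM-695, where 5.28% of all probe sets were higher and 5.15% lower. They were Hdac5 and Hdac9 (both lower) with CM-414, where 9.85% were higher and 7.38% lower, and Hdac5 (lower) with SAHA and tadalafil, where 4.41% were higher and 4.88% lower. With 3 arrays against 3, an exact permutation test of a single gene cannot give a two-sided p below 0.1.

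Some members varied together over the arrays, within and across groups. Hdac3 and Hdac8 had a Pearson r of 0.61 over the 12 arrays and of 0.75 after removing group means, and Hdac1 and Hdac2 an r of -0.51 and -0.73. Hdac5 and Hdac9 had the highest r of any pair of members (0.62), which was -0.35 after removing group means. All are descriptions, since arrays share group, dissection and normalization. The genes most like Hdac6 over the 12 arrays, among 21154 single-symbol probe sets, were Sema4g (r 0.93), Lrrc29 (0.91), Zfhx3 (0.90), Shox2 (0.89) and Mir451a (0.89). All 5 were highest on SAHA and tadalafil replicate 2, as Hdac6 was, and Shox2 was there at 6.58 and on vehicle replicate 1 at 6.35, against 5.32 to 5.96 on the other arrays. The member most like Hdac6 was Hdac1 (0.56).

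The arrays high in Hdac6 and Hdac1 were also those high in thalamus and habenula markers. All 8 marker genes of that list were above the filter on every array, as were 34785 of 41345 probe sets. Passing it does not show that a gene was detected. The mean of the 8 genes was 7.29 to 7.34 with CM-695 and 7.19 to 7.25 with CM-414. It was 7.18 to 7.96 both with SAHA and tadalafil and with vehicle. Over the 12 arrays the Pearson r with that mean was 0.79 for Hdac6, 0.70 for Hdac9, 0.59 for Hdac1 and -0.60 for Hdac4. The other members lay between -0.37 (Hdac2) and 0.23 (Hdac5). The rank correlation (Spearman) was 0.42 for Hdac6, 0.66 for Hdac9, 0.17 for Hdac1 and -0.52 for Hdac4. Without the 2 arrays at 7.96 the Pearson r was 0.25 for Hdac6, 0.49 for Hdac9, -0.40 for Hdac1 and -0.11 for Hdac4. Without them, the fold change of Hdac5 with CM-414 was -0.27 (unadjusted p = 0.0147) and that of Hdac9 -0.17 (unadjusted p = 0.0945). The 10 members were correlated with all 7 marker lists, and the largest r in size outside thalamus and habenula are given here. They were -0.88 for Hdac4 with blood vessel markers (-0.76 without the 2 arrays at 7.96) and 0.72 for Hdac9 with microglia markers (0.42). Hdac1 with choroid plexus markers gave 0.72 (0.64), and Hdac11 with astrocyte markers -0.65 (-0.68). Hdac1 with blood vessel markers went from 0.20 to -0.74 without those arrays. The part of these markers in the levels of the deacetylase genes was not tested.

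**Figure D3:**
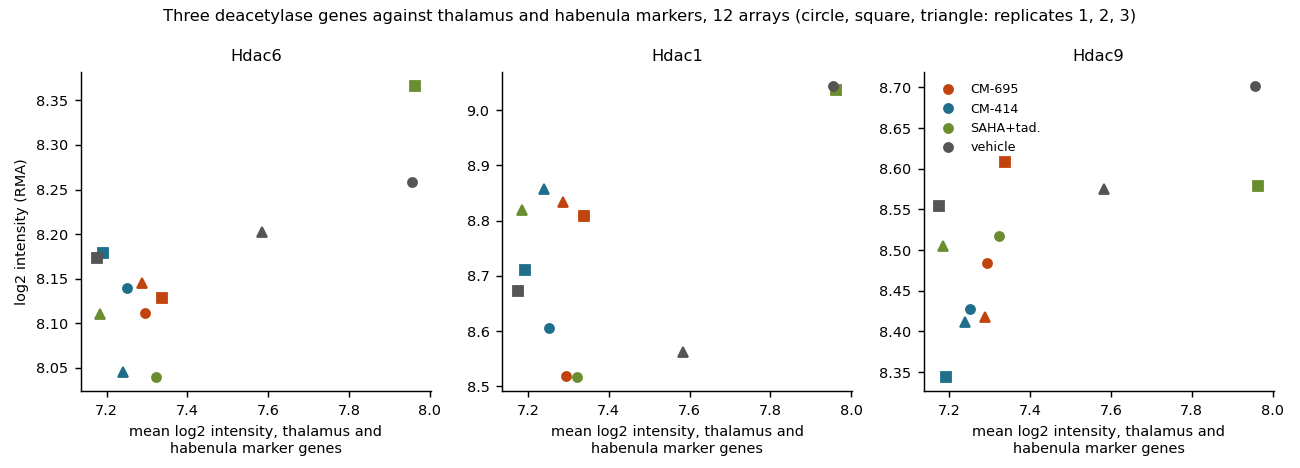
Log2 intensity of Hdac6, Hdac1 and Hdac9 (vertical axes) against the mean log2 intensity of 8 thalamus and habenula marker genes (horizontal axis) on each array, coloured by group. SAHA and tadalafil replicate 2 and vehicle replicate 1, both at 7.96 on the horizontal axis, hold the highest 2 values of Hdac6 and Hdac1, and vehicle replicate 1 the highest of Hdac9.

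Medians of the marker lists against vehicle, given first for CM-695, then for CM-414 and last for SAHA and tadalafil, were 0.04, -0.12 and -0.12 for hippocampal neurons, -0.27, -0.31 and -0.05 for thalamus and habenula, and -0.24, -0.33 and 0.13 for choroid plexus. They were -0.14, -0.13 and -0.04 for microglia, -0.06, 0.07 and -0.01 for astrocytes, 0.10, -0.16 and 0.08 for oligodendrocytes, and -0.04, -0.14 and 0.04 for blood vessels. Of 57 marker genes, 5 passed an unadjusted limma p of 0.01 in at least 1 of the 6 comparisons. Per comparison these were 1 of 57 (1.75%) in 5 of them and 2 of 57 (3.51%) with CM-414, where 1.11% to 1.62% and 2.45% of all probe sets passed. C1qb of microglia gave -0.74 with CM-695 and Sox9 of astrocytes -0.36 with CM-414. Gjb6 of astrocytes gave 0.47 with CM-414 and -0.46 for CM-695 against CM-414. Acta2 of vessel walls gave 0.63 with SAHA and tadalafil, and Gbx2 of thalamus -0.23 for the mean of the treatments. Acta2 overlapped between its groups, and without SAHA and tadalafil replicate 2 it gave 0.41 (unadjusted p = 0.0455, limma). Each of these calls was lost when some single arrays were left out.

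Among 98 genes of the acetylation machinery and of proteins that work with these enzymes, 3 (3.06%) were called with CM-414 against vehicle at an unadjusted limma p under 0.01, against 2.45% of all probe sets. All 3 were higher with CM-414, and 0 of the 98 were called with CM-695 or with SAHA and tadalafil against vehicle. Rbbp7, a histone-binding subunit of both the Sin3 and NuRD complexes, was at 10.31, 10.33 and 10.27 with CM-695, 10.34, 10.34 and 10.36 with CM-414, 10.13, 10.18 and 10.15 with SAHA and tadalafil, and 10.10, 9.999 and 9.997 with vehicle. All 9 treated arrays were above all vehicle arrays, the lowest at 10.13 with SAHA and tadalafil and the highest vehicle array at 10.10. Of all probe sets, 5.28% lay above vehicle in this way with CM-695, 9.85% with CM-414 and 4.41% with SAHA and tadalafil. The share that did so with all 3 treatments was not counted. CM-414 against vehicle gave 0.31 (SE 0.07, unadjusted p = 0.000742, adjusted p = 0.328 from limma). On only the 6 arrays of CM-414 and vehicle, a fit like that of CM-695, the unadjusted limma p was 0.00595. CM-695 against vehicle gave 0.27 (unadjusted p = 0.0189, adjusted p = 0.941), and the mean of the treatments 0.23 (unadjusted p = 0.00142, adjusted p = 0.535), both from limma.

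Plaa, a partner of VCP that handles ubiquitinated proteins in the HDAC6 pathway, was at 8.45, 8.46 and 8.24 with CM-695, 8.74, 8.55 and 8.66 with CM-414, 8.52, 8.43 and 8.39 with SAHA and tadalafil, and 8.32, 8.21 and 8.22 with vehicle. The CM-414 and the SAHA and tadalafil arrays lay above all vehicle arrays, and the CM-695 arrays overlapped with them. CM-414 gave 0.40 (SE 0.09, unadjusted p = 0.000778, adjusted p = 0.328 from limma). Tbl1xr1, a subunit that recruits the degradation machinery to the NCoR complex, was at 9.83, 9.82 and 9.59 with CM-695, 9.92, 9.86 and 9.79 with CM-414, 9.64, 9.61 and 9.71 with SAHA and tadalafil, and 9.64, 9.45 and 9.59 with vehicle. Only the CM-414 arrays were clear of both the SAHA and tadalafil arrays and the vehicle arrays. CM-414 gave 0.30 (SE 0.09, unadjusted p = 0.0065, adjusted p = 0.404 from limma), and the call was lost without vehicle replicate 2 (0.25, unadjusted p = 0.0273), vehicle replicate 3 (unadjusted p = 0.0132), CM-414 replicate 1 (unadjusted p = 0.0277) or CM-414 replicate 2 (unadjusted p = 0.0181).

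Most lists of the acetylation machinery held no called gene. None of 7 sirtuins, the NAD-dependent deacetylases, none of 15 lysine acetyltransferases, which add the acetyl groups, none of 9 CoREST genes, none of 20 class IIa partners (MEF2 factors, calcium-dependent kinases, 14-3-3 proteins) and neither of 2 BET readers of acetyl-lysine passed an unadjusted p of 0.01 in any comparison. Of 14 Sin3 genes and 12 NuRD genes Rbbp7 was the only call, of 6 NCoR genes Tbl1xr1, and of 16 HDAC6 substrates and partners Plaa. Medians against vehicle, given first for CM-695, then for CM-414 and last for SAHA and tadalafil, were 0.02, 0.03 and 0.04 for sirtuins, 0.03, 0.06 and 0.04 for acetyltransferases, and 0.04, 0.04 and -0.04 for Sin3. They were 0.06, 0.06 and 0.02 for NuRD, 0.02, 0.04 and 0.01 for CoREST, and 0.08, 0.11 and 0.10 for NCoR. They were 0.04, 0.05 and 0.02 for class IIa partners, 0.08, -0.03 and -0.0027 for HDAC6 partners, and 0.04, 0.04 and 0.01 for BET readers. The medians of Sin3 and of the HDAC6 partners differed in sign between treatments. Hdac7, the family gene outside the 10, gave 0.03 with CM-695, -0.03 with CM-414 and 0.18 with SAHA and tadalafil and was not called. Its SAHA and tadalafil arrays (7.85, 7.69 and 7.677) were above the other 9, narrowly so over vehicle replicate 2 (7.672). Such a separation of SAHA and tadalafil in either direction was seen in 1.03% of all probe sets.

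Of 3 measured transcripts known to rise when deacetylases are inhibited in cultured cells, 2 were called against vehicle, in opposite directions. Cdkn1a was lower with CM-695 and Txnip higher with SAHA and tadalafil, where 1.12% of all probe sets were called in each comparison. With CM-414 and for the mean of the treatments 0 of the 3 were called, against 2.45% and 1.62%. CM-695 against CM-414 and the F test each gave 1 (1.11% and 1.62%). Cdkn1a, which encodes the cell cycle inhibitor p21, was at 7.78, 7.77 and 7.86 with CM-695, 8.62, 8.23 and 8.97 with CM-414, 8.34, 7.99 and 8.14 with SAHA and tadalafil, and 8.14, 8.12 and 8.14 with vehicle. The CM-695 arrays were below all others, a separation that 1.18% of all probe sets showed for CM-695 in either direction. The CM-414 arrays were above all vehicle arrays. CM-695 against CM-414 gave -0.80 (SE 0.16, unadjusted p = 0.000301, adjusted p = 0.620 from limma), a difference at p under 0.01 in all 15 alternatives. Against vehicle, CM-414 gave 0.47 (unadjusted p = 0.0112) and CM-695 -0.33 (SE 0.09, unadjusted p = 0.00641, adjusted p = 0.871 from limma), and the CM-695 call was lost in a fit of all 12 arrays (unadjusted p = 0.056) and when any single array other than CM-695 replicate 3 was left out (unadjusted p = 0.012 to 0.028).

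Txnip, an inhibitor of thioredoxin, was at 8.31, 8.14 and 8.003 with CM-695, 8.10, 8.32 and 8.41 with CM-414, 8.32, 8.68 and 8.43 with SAHA and tadalafil, and 8.15, 7.55 and 8.11 with vehicle. The SAHA and tadalafil arrays were above all vehicle arrays, and vehicle replicate 2 was far below the other vehicle arrays. SAHA and tadalafil against vehicle gave 0.54 (SE 0.17, unadjusted p = 0.00768, adjusted p = 0.862 from limma). It was 0.34 without vehicle replicate 2 (unadjusted p = 0.0299), 0.44 without SAHA and tadalafil replicate 2 (unadjusted p = 0.036) and 0.56 without SAHA and tadalafil replicate 3 (unadjusted p = 0.0156). Gsn, the third transcript, was not called in any comparison.

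**Figure D4:**
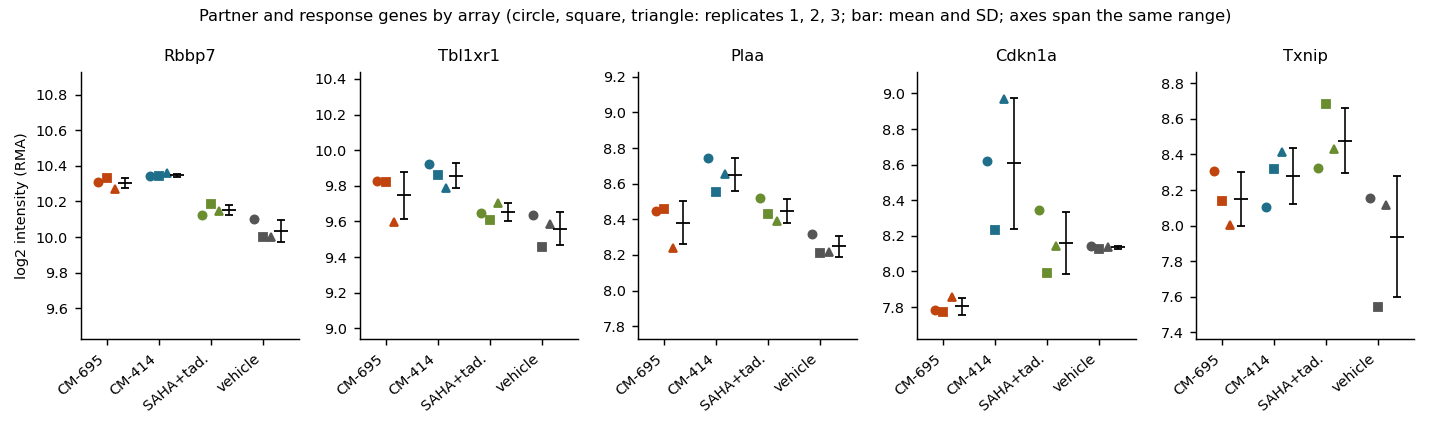
Log2 intensity of Rbbp7, Tbl1xr1, Plaa, Cdkn1a and Txnip (vertical axes, each spanning the same range) on each array by treatment group and vehicle, with the mean and SD as a bar. The treated arrays of Rbbp7 (10.13 to 10.36) are above the vehicle arrays (at most 10.10), and the CM-695 arrays of Cdkn1a (7.77 to 7.86) are below all others.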

How the data were processed

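Hippocampal RNA was hybridised to 12 Affymetrix Mouse Gene 2.0 ST arrays, 3 per group. The authors ran RMA for background correction and normalization, and they deposited 1 log2 intensity per array for each of 41345 probe sets, from an RMA version not given in the sources used here. Groups and replicate numbers were taken from the labels, which call the arrays biological replicas. They do not say that each is a separate animal, so p-values measure the spread between these samples. Of the probe sets, 23521 carry 1 gene symbol in the platform annotation, 1820 several and 16004 none, and names were given only to the first kind.

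From these values, linear models (limma 3.58.1, R 4.3.3) with moderated two-sided tests were fitted to probe sets whose log2 value exceeded 4 (16 on the linear scale) on all arrays of the groups compared, which left 34785 to 35326. CM-695 against vehicle used its 6 arrays, as in the study's methods, and the other comparisons all 12 arrays with a shared spread. Calls used an unadjusted p under 0.01, the study's threshold, and a Benjamini-Hochberg adjusted p under 0.05 over all probe sets. Other named genes are, from each list, up to 3 at an unadjusted p under 0.01 per comparison, and the 5 probe sets most correlated with Hdac6. The 10 members and 18 lists of partner, response and marker genes were chosen with earlier results of these data known. Of the list genes 13 had no probe set of their own and were not analysed here. Each result was computed again with other filters, centring, priors, array weights, replicate blocks, arrays in the fit, a mean over probe sets, and each array left out. The fits were tested on simulated data. There is no sequencing depth on arrays, and the 3 arrays of a group limit the precision. Promoters came from a RefSeq table of GRCm38.p6. Plots were made in Python 3.11.15 with matplotlib 3.10.9. No genome or protein sequences were used here.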

Additional observations from a re-analysis of the deposited data

How the results depend on the processing

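With CM-414 against vehicle, where 1 member (Hdac5) was called, 2 members were called with array weights, Hdac9 being the second (unadjusted p = 0.00489). The count was 0 without CM-695 replicate 3, SAHA and tadalafil replicate 1 and vehicle replicate 2, which stand apart on the first principal component, 0 in a fit of only the 6 arrays compared, and 0 without the 2 arrays highest in thalamus markers, a setting chosen after seeing the data. Leaving out 1 array at a time gave 0 to 1. The fold change of Hdac5 lay between -0.28 and -0.21 over 16 alternatives, with unadjusted limma p between 0.00201 and 0.0254 and adjusted p between 0.2 and 0.755. The other 5 comparisons had 0 members called under every alternative run.

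The replicate numbers are not known to pair the arrays. Deviations from the group means of same-numbered arrays correlated at -0.35 to 0.16. With the replicate number as a block, 0 members were called with CM-414 against vehicle (Hdac5 unadjusted p = 0.0141, limma), no call of a member arose elsewhere, and over all probe sets 675 were called with CM-414 instead of 864. The block also ended the calls of Tbl1xr1 with CM-414 (unadjusted p = 0.0104), Sox9 with CM-414 (unadjusted p = 0.0104), Txnip with SAHA and tadalafil (unadjusted p = 0.016), Cdkn1a with CM-695 (unadjusted p = 0.0243), C1qb with CM-695 (unadjusted p = 0.0118) and Gbx2 for the mean of the treatments (unadjusted p = 0.013), each against vehicle. Of 16 alternatives, Rbbp7 and Plaa with CM-414 were called in all 16, C1qb with CM-695 and Gjb6 with CM-414 in 11, Tbl1xr1, Txnip and Sox9 in 8, Acta2 in 7 and Cdkn1a with CM-695 in 6. Gbx2 for the mean of the treatments was called in 10 of 21, and Gjb6 for CM-695 against CM-414 in 11 of 15.

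Of 50 member fold changes, 24 changed sign in at least 1 alternative, the largest of these being 0.12 in size, and 0 of the 5 at an unadjusted p under 0.05 did. Hdac6 with SAHA and tadalafil against vehicle was 0.00778 without the arrays that stand apart and lay between -0.136 and 0.027 when 1 array was left out. Hdac11 for CM-695 against CM-414 was -0.0792 with the mean of its probe sets. Pairs of a member and a comparison without overlap, 8 in all, numbered 9 after centring each array on its median and 7 with the mean of probe sets.

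Over all probe sets, the count at an unadjusted p under 0.01 ranged over 192 to 1125 with CM-695 (393 as reported), 448 to 1531 with CM-414 (864), 225 to 664 with SAHA and tadalafil (395), 361 to 1106 for the mean of the treatments (565), 262 to 700 for CM-695 against CM-414 (393) and 373 to 1233 in the F test (563). At an adjusted p under 0.05 the highest counts were 33 with CM-695, 25 with CM-414, 2 with SAHA and tadalafil, 24, 0 and 16. The mean of probe sets tests fewer features, and the cause of the other shifts was not tested. With 3 arrays per group, the 95% intervals of the members reached as low as -0.44 and as high as 0.41.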
